A study of Mus musculus with 8 samples.

Results

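The p53-induced death genes described here are 9 listed genes, *Bax*, *Bbc3*, *Pmaip1*, *Fas*, *Perp*, *Aen*, *Phlda3*, *Ei24* and *Zmat3*, a fixed list of known p53 targets found by gene symbol in the annotation of the array. The rule uses no measured value, but the list was drawn up with earlier results of these data known, so the counts below describe these genes and are not independent evidence of their direction. Of the 9 genes, 8 had a probe set naming only that gene and were measured, among 18193 genes in all. No probe set carried the symbol of *Bax* in the annotation used, so its level was not analysed here. A probe set is a group of short probes that together read 1 transcript. *Aen* had 4 of them and the other 7 measured genes 1 each, and the brightest over the 8 arrays stood for *Aen*. Expression was read on 8 Affymetrix mouse arrays in 4 groups of 2: CD3+CD8+CD44+CD62L- T cells from lymph nodes (LN) or from MC38 tumors, of mice given 5 Gy of whole body irradiation (IR) 5 h earlier or left non-irradiated. Every mouse, in each of the groups, was a female C57BL/6 animal of 6 to 8 weeks that carried a subcutaneous MC38 tumor, a colon carcinoma line. The cells on 1 array came from 4 mice, sorted and pooled, and the series describes 2 independent experiments. LN cells were released by mechanical disruption and tumor cells by enzyme digestion, and both were sorted after positive selection for CD8, so the LN groups are T cells of tumor-bearing mice and not of healthy ones.

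When DNA is broken, the transcription factor p53 is stabilised and turns on genes that arrest, repair or kill the cell. The death genes among them act at several places. BAX, PUMA (encoded by *Bbc3*) and NOXA (*Pmaip1*) belong to the BCL2 family, in which BAX forms pores in the outer mitochondrial membrane and PUMA and NOXA bind and block the survival proteins. Fas is a receptor at the cell surface that starts caspases when bound by its ligand, and the others act at the membrane, on DNA, on survival signaling or on RNA. Lymphocytes are known for p53-dependent apoptosis within hours of IR.

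Because the members moved together, promoters of some of them, placed by RefSeq (GRCm38.p6), were searched for the p53 half-site consensus. It is a 10-base motif that p53 binds in pairs and that reads the same on both strands. Of the 8 measured members 5 were searched, *Aen*, *Bbc3*, *Ei24*, *Fas* and *Phlda3*, with 8 start sites in all. The other 3 were left out of the search, so the counts below say nothing about their promoters. In the 250 bases before each start, an exact half-site was present in 2 of the 8 windows, 1 of *Aen* and that of *Ei24*, and in 7.13% of 32851 windows of all genes. The 3 sequences below are those 2 and that of *Phlda3*, the member with the largest rise, written 5′ to 3′ on the strand of the gene, with the exact half-site in capitals. That of *Aen* lies on the + strand at chr7:78895808-78896057, that of *Ei24* on the - strand at chr9:36797335-36797584 and that of *Phlda3* on the + strand at chr1:135765835-135766084.
Aen: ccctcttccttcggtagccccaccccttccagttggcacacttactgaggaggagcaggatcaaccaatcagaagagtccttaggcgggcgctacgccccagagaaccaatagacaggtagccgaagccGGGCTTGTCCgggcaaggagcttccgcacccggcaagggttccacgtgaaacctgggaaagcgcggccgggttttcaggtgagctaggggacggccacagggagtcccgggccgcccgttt
Ei24: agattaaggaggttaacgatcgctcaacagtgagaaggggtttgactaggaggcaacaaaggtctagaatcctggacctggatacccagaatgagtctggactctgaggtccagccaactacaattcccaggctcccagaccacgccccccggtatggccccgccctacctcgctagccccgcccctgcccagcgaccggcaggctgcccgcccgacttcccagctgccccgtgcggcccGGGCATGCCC
Phlda3: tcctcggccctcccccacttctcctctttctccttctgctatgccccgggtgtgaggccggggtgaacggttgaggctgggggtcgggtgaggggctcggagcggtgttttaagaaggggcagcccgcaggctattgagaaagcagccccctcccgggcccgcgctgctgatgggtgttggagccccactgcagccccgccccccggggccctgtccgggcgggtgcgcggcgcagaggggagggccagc
The half-site of *Aen* ended 111 bases before the start and that of *Ei24* directly at it, with 0 bases between. Allowing 3 or fewer mismatches over 2 adjacent half-sites, 2 of the 8 windows matched, the same *Aen* window and 1 of the 3 of *Bbc3*, against 5.32% of all windows. At 2 or fewer mismatches 0 of the 8 matched, against 0.661% of all windows. The central letters CATG, which the half-site may hold, were in 1 of the 8 windows, that of *Ei24* inside its half-site, against 53.95% of all windows. The G and C content of the 8 windows was 55.6% to 81.6%, and the median of all windows 52.4%. A match is a description of the letters, and no match says only that these letters are not in this window.

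Values are log2 intensities as deposited, and n is 2 arrays per group throughout. A gene passed, and is said to have risen or fallen, where the Benjamini-Hochberg adjusted p of limma over all annotated probe sets was under 0.1 and its log2 fold change reached 1 in either direction. The p-values measure the spread between the 2 arrays of a group, each a pool of mice, and the number of arrays limits the precision. A difference between the 2 experiments may be part of that spread and was not separated from it in the main fit. The sorted phenotype was present on every array: the mean of 10 T cell identity genes ran from 11.05 to 11.78 and none of them lay under the lower quartile of its array (5.38 to 5.59). The 2 LN arrays with IR agreed least (SD of their difference over genes 0.57, against 0.27 in both tumor groups). In bulk samples, fewer cells of a kind and less RNA per cell cannot be told apart.

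With IR the death genes had higher values in LN T cells and, by a smaller difference for 7 of the 8, in tumor T cells. In LN T cells 7 of the 8 measured members rose, 0 fell and 1 did not pass, against 0.786% of all genes rising and 0.264% falling. Among tumor T cells 3 members rose and 5 missed the threshold with 0 falling, against 0.0934% of all genes rising and 0.00550% falling. In both tissues each member was higher on both arrays with IR than on both arrays without it, which held for 21.8% of all genes in LN and 41.4% in tumor. The reverse order, seen for 0 members, held for 19.5% and 26.0% of all genes. The median log2 fold change of the 8 members was 2.05 in LN (all genes 0.01) and 1.52 in tumor T cells (all genes 0.09). The members had an unadjusted p under 0.05 in 8 of 8 cases in LN, as 14.3% of genes did, and in 8 of 8 in tumor, as 16.6% of genes did. When each tissue was fitted alone on its 4 arrays, 0 members and 0 of all genes passed among LN T cells. Among tumor T cells 8 members and 173 of all genes passed in that way. A robust fit of the 8 arrays also passed 8 members in tumor T cells, and 177 of all genes. In data simulated without any effect, the robust fit gave 10.0% of probe sets an unadjusted p under 0.05.

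**Figure D1:**
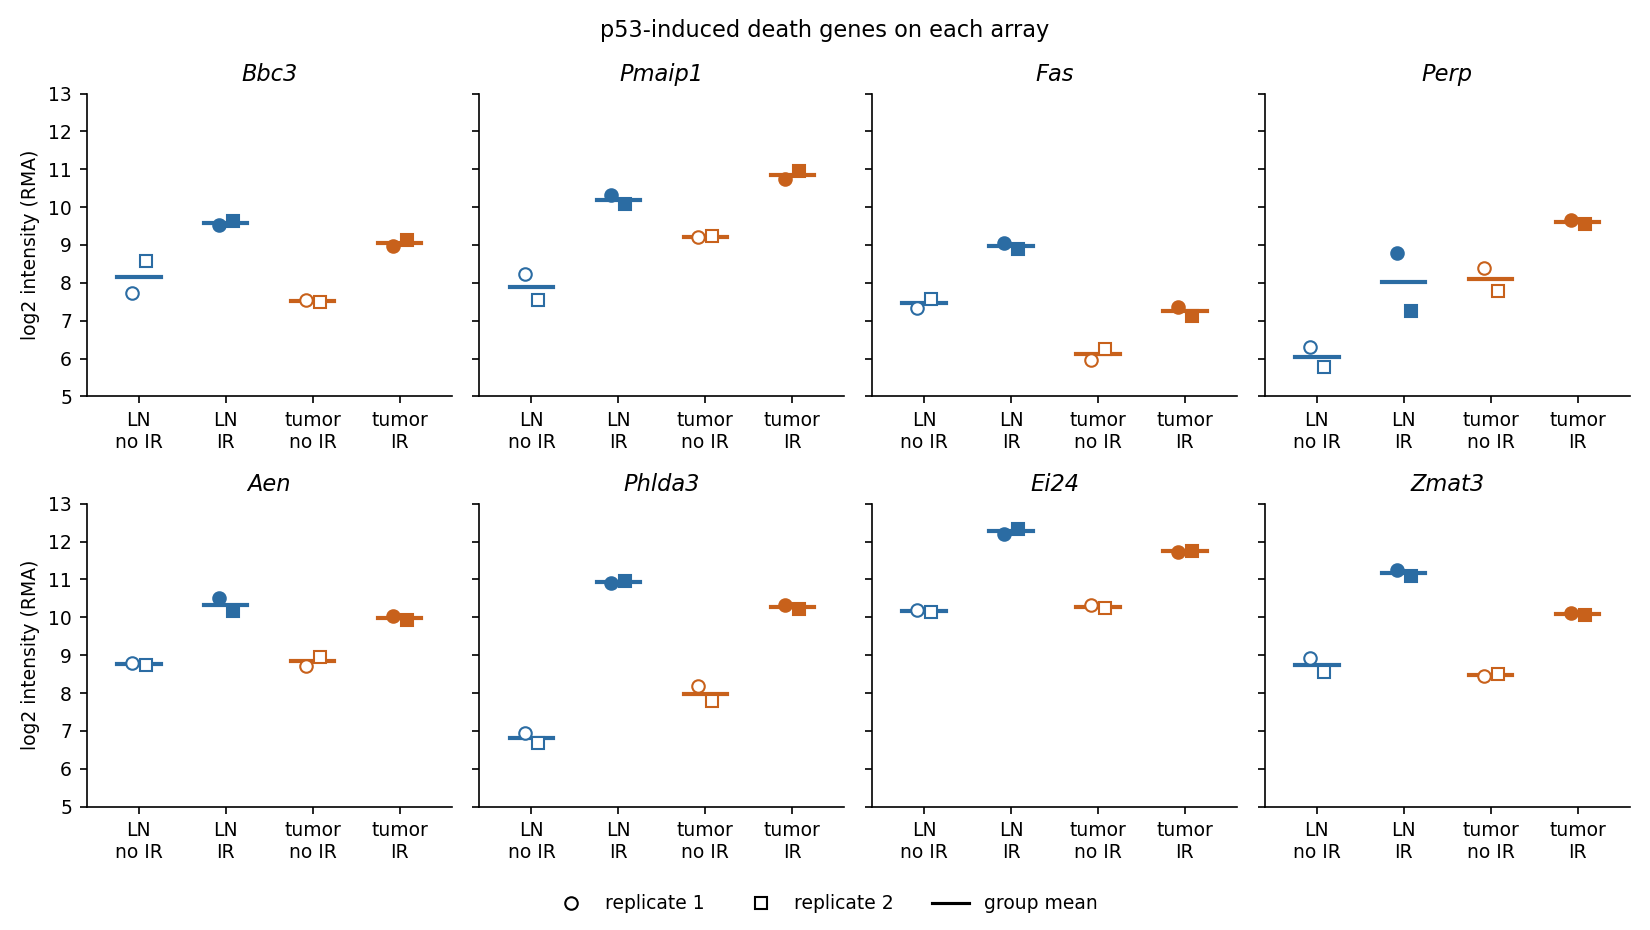
Log2 intensity (vertical axis, RMA) of the 8 measured p53-induced death genes on each array, by group (horizontal axis). Each point is an array (circle replicate 1, square replicate 2, filled with IR) and each line the mean of the 2 arrays. *Phlda3* climbs from 6.95 and 6.68 to 10.91 and 10.97 in LN T cells, and the LN arrays with IR differ for *Perp* (8.79 and 7.26).

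Among the activators of the mitochondrial pathway, *Pmaip1*, whose product NOXA neutralises the survival protein MCL1, read 8.23 and 7.56 in non-irradiated LN T cells and 10.31 and 10.08 after IR. On the tumor arrays it read 9.20 and 9.24 without IR and 10.75 and 10.97 with IR. The unirradiated tumor arrays thus lay between the LN groups, with no overlap. *Pmaip1* rose in LN T cells by 2.30 ± 0.23 (log2 fold change ± SE, adjusted p = 0.0118), and in tumor T cells the difference of 1.64 did not pass (adjusted p = 0.131). *Bbc3*, whose product PUMA binds all the survival proteins of the family, read 7.74 and 8.57 without IR and 9.53 and 9.64 with IR in LN T cells. The tumor arrays read 7.55 and 7.49, then 8.97 and 9.13. The LN arrays without IR differed by more than those of any other group for this gene (SD 0.59). It rose in LN T cells by 1.43 ± 0.26 (adjusted p = 0.0817), a call that was lost without LN no IR replicate 1 (1.02, adjusted p = 0.135), without LN IR replicate 2 (adjusted p = 0.141) or without any 1 tumor array (adjusted p = 0.208 or 0.224). The tumor difference was 1.53 ± 0.26 (adjusted p = 0.211), the one member whose value there was above that in LN.

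*Fas*, the death receptor itself, was the member with the lowest values in tumor T cells relative to LN T cells. It read 7.34 and 7.58 in non-irradiated LN T cells and 9.05 and 8.88 after IR, and rose by 1.50 ± 0.18 (adjusted p = 0.0227, and 0.116 without LN no IR replicate 1). On the tumor arrays it read 5.97 and 6.26, then 7.37 and 7.12, a difference of 1.13 ± 0.18 that did not pass (adjusted p = 0.195). The irradiated tumor arrays overlapped the unirradiated LN arrays: the higher of the former stood above the lower of the latter.
*Perp*, a tetraspan membrane protein of cell junctions that p53 induces during apoptosis, varied most between replicates. It read 6.31 and 5.76, then 8.79 and 7.26 in LN T cells, and the irradiated pair differed by an SD of 1.08. The difference of 1.99 ± 0.48 did not pass (adjusted p = 0.149). Without LN IR replicate 1 it was 1.22 and without LN IR replicate 2 it was 2.75, and both passed (adjusted p = 0.0408 and 0.0186), while the alternatives as a whole ranged from 0.0186 to 0.689. On the tumor arrays *Perp* read 8.39 and 7.79, then 9.65 and 9.54, a difference of 1.51 ± 0.48 (adjusted p = 0.297).

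*Phlda3*, whose product competes with the kinase AKT for membrane lipids and so restrains survival signaling, had the largest response of the members. It ranked 4 of 18193 genes by rise in LN T cells and 9 in tumor T cells. Its values in LN T cells (6.95 and 6.68 without IR, 10.91 and 10.97 with IR) correspond to a 17.4-fold rise, of 4.12 ± 0.18 on the log2 scale (adjusted p = 0.00178). The tumor arrays read 8.18 and 7.78, then 10.32 and 10.22, a 4.89-fold rise (2.29 ± 0.18, adjusted p = 0.0301). The groups did not overlap, and the order of the 4 means was LN without IR, tumor without IR, tumor with IR and LN with IR.
*Zmat3*, an RNA-binding zinc finger protein that acts on stability and splicing of target mRNAs, read 8.92 and 8.55, then 11.26 and 11.10 in LN T cells (2.44 ± 0.17, adjusted p = 0.00301). The tumor arrays gave 8.46 and 8.52, then 10.10 and 10.05 (1.59 ± 0.17, adjusted p = 0.0512). *Ei24*, a membrane protein of the endoplasmic reticulum tied to autophagy and cell death, read 10.19 and 10.14, then 12.21 and 12.34 in LN T cells (2.11 ± 0.14, adjusted p = 0.00301). Tumor T cells gave 10.32 and 10.24, then 11.73 and 11.77 (1.47 ± 0.14, adjusted p = 0.0301). For *Zmat3* and *Ei24* too, as for every member but *Fas* and *Perp*, all arrays with IR lay above all arrays without it, whichever the tissue. *Phlda3*, *Ei24* and *Zmat3* were the 3 that rose in both tissues, and without any 1 of the 4 tumor arrays no member passed in tumor T cells (0 of 8).

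*Aen* encodes a nuclease that p53 induces and that cuts DNA and RNA in dying cells. On its main probe set it read 8.79 and 8.74, then 10.51 and 10.15 in LN T cells and rose by 1.57 ± 0.17 (adjusted p = 0.0162, and 0.11 without LN no IR replicate 2). The tumor arrays read 8.72 and 8.96, then 10.03 and 9.94, which did not pass (1.15 ± 0.17, adjusted p = 0.161). The 4 probe sets gave 1.57 to 1.88 in LN T cells, where 3 of them passed, and disagreed in tumor T cells. There 1450506_a_at rose by 1.22 (adjusted p = 0.0976), 1451186_at gave 1.57 (adjusted p = 0.283) and the dimmest, 1437373_at, gave 0.43 (adjusted p = 0.329). On 1437373_at the tumor arrays read 6.78 and 6.92 without IR and 7.40 and 7.16 with it, against 8.40 and 8.78 on the irradiated LN arrays, so that after IR the tumor value was lower (−1.31, adjusted p = 0.00744). The main probe set gave −0.35 in that comparison (adjusted p = 0.282). Which transcripts of *Aen* each probe set reads was not examined.

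**Figure D2:**
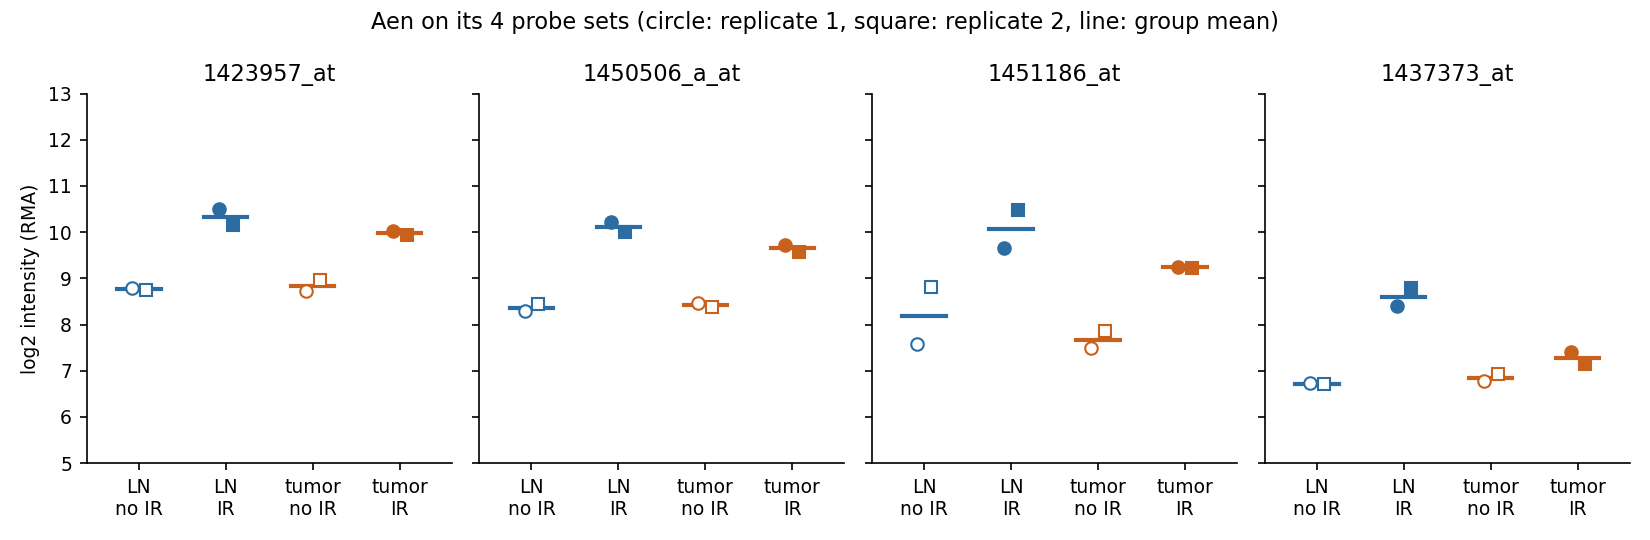
Log2 intensity (vertical axis, RMA) of *Aen* on each of its 4 probe sets, by group (horizontal axis), with 1 point per array and lines at the means of 2 arrays. On all 4 the arrays with IR lie above those without it in both tissues. On the dimmest, 1437373_at, the difference is 0.43 in tumor and 1.87 in LN T cells.

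Whether the response differed between tissues was tested as the IR effect in tumor less that in LN. For 7 of the 8 members this difference was below 0 (median −0.56, all genes 0.12). None passed, 0 of 8 by limma, against 0.00% of all genes. By limma 3 of 8 had an unadjusted p under 0.05 (5.63% of all genes). By a robust fit 1 of 8 passed, and the share of all genes passing by that fit was not computed for this difference. In data simulated without any effect, the robust fit gave 10.0% of probe sets an unadjusted p under 0.05. The LN and tumor responses side by side were 4.12 and 2.29 for *Phlda3*, a difference of −1.83 with a 95% interval of −2.44 to −1.22 (unadjusted p = 0.00018, adjusted p = 0.328). It passed with a robust fit (adjusted p = 0.0671) and without LN IR replicate 1 (adjusted p = 0.0456), and its adjusted p ranged to 1.00 over the alternatives. For *Zmat3* the difference was −0.85 (−1.41 to −0.29, unadjusted p = 0.00857) and for *Ei24* −0.65 (−1.10 to −0.19, unadjusted p = 0.0116), both with an adjusted p = 0.758. The intervals of the other 5 included 0 on their main probe sets: *Pmaip1* −1.44 to 0.11, *Aen* −0.995 to 0.16, *Fas* −0.98 to 0.24, *Perp* −2.07 to 1.11 and *Bbc3* −0.77 to 0.96. These intervals leave room for differences near the size of the response itself in *Perp* and do not show that the tissues responded alike. The other *Aen* probe sets disagreed. On 1437373_at the difference was −1.45 (−2.05 to −0.85, adjusted p = 0.546) and on 1450506_a_at −0.52 (−1.03 to −0.016, adjusted p = 0.782). The interval of 1451186_at included 0 (−1.73 to 1.11).

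**Figure D3:**
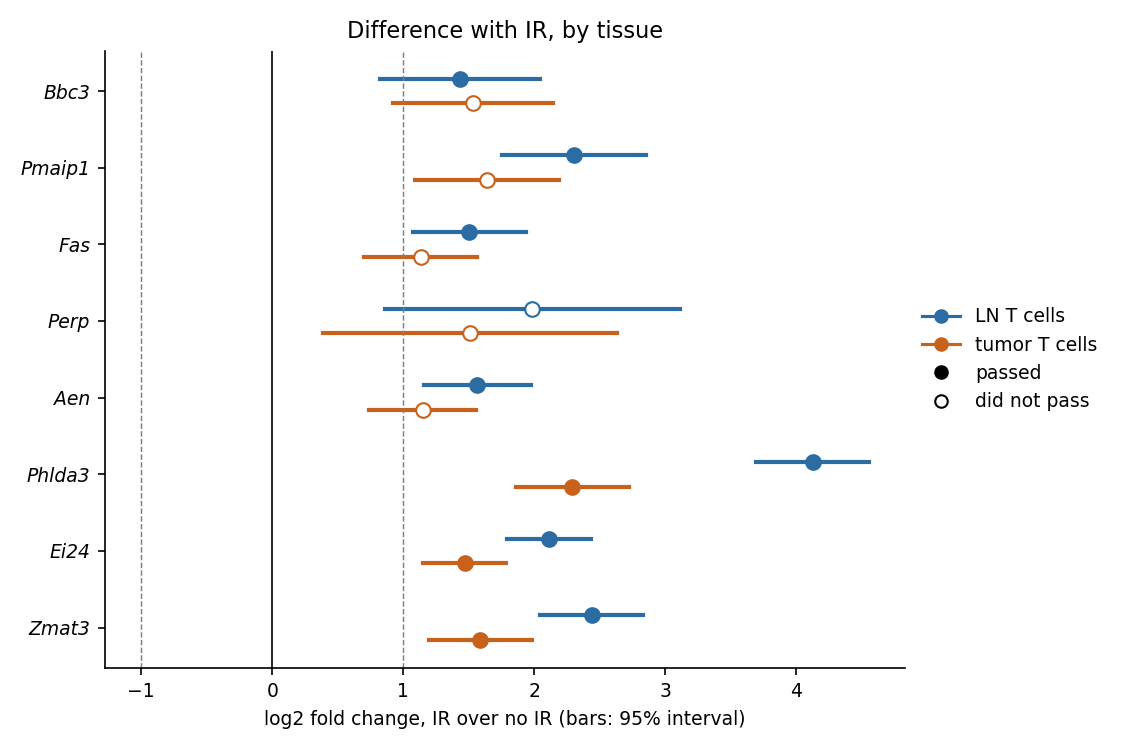
Log2 fold change of IR over no IR (horizontal axis) for each member (vertical axis) in LN T cells (blue) and tumor T cells (orange), with 95% intervals from limma; filled points passed and dashed lines mark the fold limit. All 16 points lie to the right of 1, and the tumor point lies left of the LN point for every member but *Bbc3*.

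Without IR, the death genes did not differ between the tissues in 1 direction. Of the 8, tumor T cells held 3 at a higher level and 1 at a lower level than LN T cells, and 4 did not pass, against 4.50% of all genes higher and 1.04% lower. The arrays of the tissues did not overlap for 4 members that were higher (21.3% of all genes) and 3 that were lower (35.2%), and overlapped for *Aen*. An unadjusted p under 0.05 was found for 5 of 8 (17.7% of all genes). *Perp* was higher by 2.05 ± 0.48 (adjusted p = 0.0572), *Pmaip1* by 1.33 ± 0.23 (adjusted p = 0.0205) and *Phlda3* by 1.16 ± 0.18 (adjusted p = 0.0136). *Fas* was lower by 2.55-fold (−1.35 ± 0.18, adjusted p = 0.00746), the only one of these calls that held in all 17 alternatives. The call for *Pmaip1* was lost without LN no IR replicate 2 (0.99, under the fold limit) and without either unirradiated tumor array, that for *Phlda3* without tumor no IR replicate 1 (0.96), and that for *Perp* without any array other than the LN IR ones. *Bbc3* was lower by value (−0.63, adjusted p = 0.273), and the 95% intervals of *Aen* (−0.34 to 0.48), *Ei24* (−0.20 to 0.44) and *Zmat3* (−0.64 to 0.15) included 0.
With IR in both tissues, 1 member was higher in tumor T cells, 2 were lower and 5 did not pass, against 4.80% of all genes higher and 2.00% lower. No member overlapped between the tissues, with 2 higher (30.1% of all genes) and 6 lower (20.0%) in tumor T cells, and 6 of 8 had an unadjusted p under 0.05 (21.7% of all genes). *Fas* was lower by 3.30-fold (−1.72 ± 0.18, adjusted p = 0.00277), again in all 17 alternatives. *Zmat3* was lower by 1.10 ± 0.17 (adjusted p = 0.0115), lost without tumor IR replicate 2 (adjusted p = 0.105) and under the fold limit when the arrays were scaled to T cell identity genes (−0.88). *Perp* was higher by 1.58 ± 0.48 (adjusted p = 0.0948), a call lost in 9 of 17 alternatives, among them each array left out other than LN IR replicate 1. *Phlda3*, higher in tumor without IR, had a value below LN with IR (−0.67 ± 0.18, adjusted p = 0.073), as did *Ei24* (−0.53 ± 0.14, adjusted p = 0.0606), both under the fold limit. *Pmaip1* (0.66, adjusted p = 0.139) and *Bbc3* (−0.53, adjusted p = 0.27) did not pass. The comparisons share arrays and are not independent of each other.

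**Figure D4:**
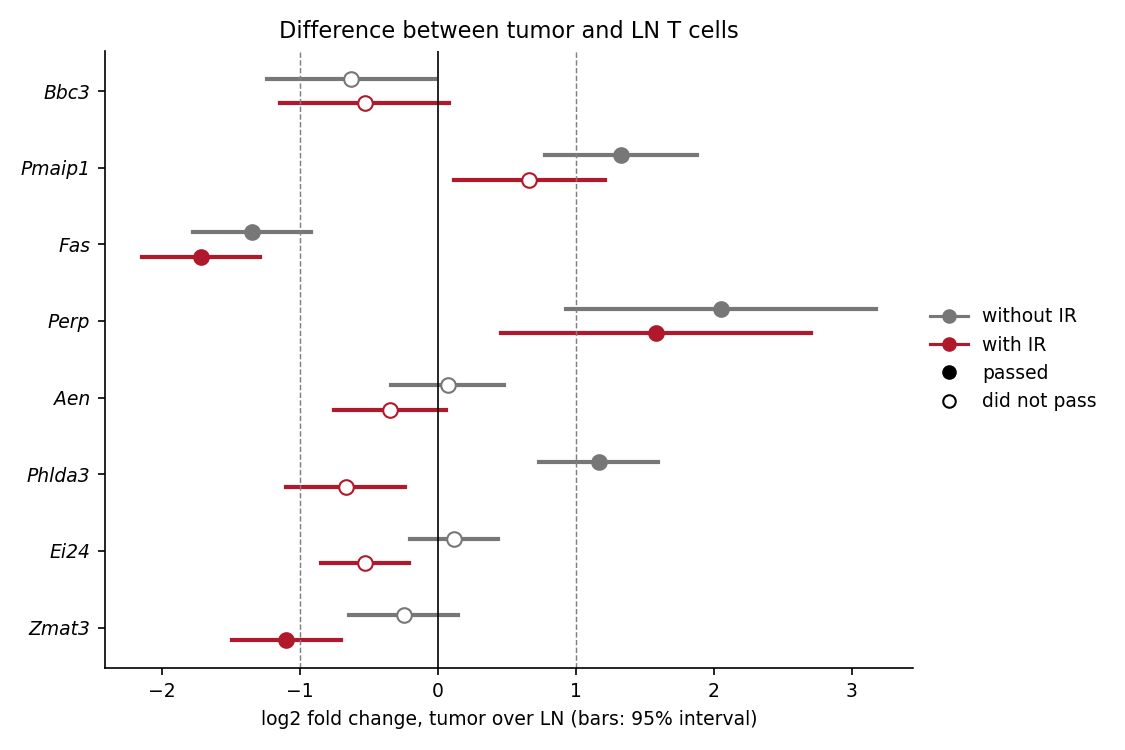
Log2 fold change of tumor over LN T cells (horizontal axis) for each member (vertical axis), without IR (grey) and with IR (red), with 95% intervals from limma; filled points passed. *Fas* lies left of −1 in both (−1.35 and −1.72), *Perp* right of 1 in both (2.05 and 1.58), and *Phlda3* lies at 1.16 and −0.67.

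Markers of other cell types differed between the tissues as well. Among 14 markers of macrophages and monocytes, tumor T cells exceeded LN T cells for 13 without IR and for 12 with IR, and fell below them for 0. Their mean was 6.10 to 6.68 in non-irradiated LN T cells, 6.45 to 6.64 after IR, 10.46 to 11.14 on the tumor arrays without IR and 8.98 to 10.37 with IR. Fibroblast markers were higher in 5 of 12 cases without IR (mean 6.18 to 6.41 in LN, 8.00 to 8.13 in tumor) and in 6 of 12 with IR. Of 9 B cell markers 4 were lower in tumor without IR and 3 with IR, and of 12 epithelial markers 2 were higher in both (*Cdh1* and *Sox9*). *Epcam*, an epithelial surface protein, stood at 6.51 to 7.05 on the 8 arrays. For IR in tumor T cells, where none of these markers passed, the macrophage markers had a median log2 fold change of −1.20 (1 of 14 above 0). The 10 T cell identity genes had a median of −0.30 in this comparison (0 of 10 above 0). For IR in LN T cells their median was −0.36 (1 of 10 above 0). Fibroblast markers had a median of 0.33 in tumor T cells (all genes 0.09) with 11 of 12 above 0, the same direction as the death genes. The exception was *Thy1* (−0.61), which was high in LN T cells too (11.80 and 11.87 without IR). *Postn*, a matrix protein of fibroblasts, gave 1.62 (adjusted p = 0.283) and ranked 19 by rise. Epithelial markers also had a median of 0.33 with 10 of 12 above 0, and B cell markers one of 0.13 with 5 of 9 above 0. For IR in LN T cells, 1 of 12 epithelial markers was lower (*Cdh1*, −2.27, adjusted p = 0.0518). No macrophage, fibroblast or B cell marker passed there. B cell markers had a median of 0.00 (5 of 9 above 0), with *Cd22* at −2.03 (adjusted p = 0.129). Their mean was 7.44 to 8.15 on the unirradiated LN arrays, 7.65 to 7.67 on the irradiated ones and 6.31 to 6.54 on the tumor arrays. The part of other cells in the IR differences of the death genes in either tissue, and in the tissue differences of *Fas*, *Perp*, *Pmaip1*, *Phlda3* and *Zmat3*, was not tested.

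How alike the members were was described over the 8 arrays as the root mean square difference between profiles, each less its own mean. *Ei24* lay closest to the mean of the 8 members (0.15), followed by *Aen* (0.28), and *Perp* (0.98) and *Fas* (0.82) lay farthest. The closest pair was *Aen* and *Ei24* (0.27) and the most distant *Fas* and *Perp* (1.75). Among all other genes above the lower quartile, the 5 profiles nearest the mean of the members were *Glipr1* (0.20), *Lpin1* (0.23), *Aaas* (0.27), *Ccng1* (0.27) and *Pvt1* (0.27). *Glipr1*, a secreted or membrane protein known as a p53 target, read 9.90 and 9.97 in non-irradiated LN T cells and 11.66 and 11.75 with IR. On the tumor arrays it read 10.23 and 10.19, then 11.86 and 11.65. *Lpin1* encodes a phosphatidate phosphatase, *Aaas* a nuclear pore protein, *Ccng1* cyclin G1, a p53 target, and *Pvt1* a noncoding RNA.

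Beside the members, 25 other measured p53 targets were followed: 13 rose and 12 did not pass in LN T cells (median 1.18), while 4 rose and 21 did not pass among tumor T cells (median 0.76), with 0 falling in either. The largest rises were those of *Cdkn1a*, the cell cycle inhibitor p21 (3.84), and *Psrc1*, a spindle protein (3.54), in LN, and of *Dcxr*, a xylulose reductase (2.52), and *Psrc1* (2.34) in tumor T cells. Without IR *Cdkn1a* was higher in tumor T cells (2.12, adjusted p = 0.00689) and *Trp53inp1*, a p53 cofactor, was lower (−1.58). With IR *Sesn2*, a stress sensor (−1.47), and *Ppm1d*, a phosphatase that ends the damage signal (−1.19), were lower in tumor T cells. Of 11 genes that control p53, 2 rose in LN T cells and 0 in tumor T cells, and these 2 (*Mdm2* and *Ppm1d*) are also on the list of targets. *Mdm2*, the ubiquitin ligase of p53, gave 1.72 in LN (adjusted p = 0.00883) and 0.91 in tumor T cells (adjusted p = 0.216).
The rest of the BCL2 family and the apoptosome, 18 genes, had a median of −0.08 in LN and −0.07 in tumor T cells. In LN T cells 2 rose, *Apaf1*, the scaffold that activates caspase-9 and also a p53 target (2.08), and *Bcl2l11*, which encodes the activator BIM (1.28, adjusted p = 0.055), and in tumor T cells 0 did. *Bcl2l11* read 11.26 and 11.22, then 12.27 and 12.77 in LN T cells, and 12.29 and 12.01, then 12.23 and 12.28 in tumor T cells, where the unirradiated arrays overlapped the irradiated LN arrays. The survival genes *Bcl2* (0.37 and −0.32), *Bcl2l1* (0.05 and −0.14) and *Mcl1* (0.14 and 0.11) did not pass in LN or tumor T cells.
Of 11 genes of the death receptor pathway, 1 rose in LN T cells, *Tnfrsf10b*, the receptor for TRAIL and a p53 target (1.52), and 0 did in tumor T cells. *Casp8*, the caspase that Fas recruits, gave −0.28 and −0.39 and did not pass. *Fasl*, the ligand of Fas, was higher in tumor T cells without IR (2.59, adjusted p = 0.0314) and with IR (2.18, adjusted p = 0.0461), as *Fas* was lower in both, and *Tnfsf10*, which encodes TRAIL, was higher without IR (1.06, adjusted p = 0.00824) and with IR (1.40, adjusted p = 0.00265). *Fasl* read 8.87 and 7.44 in non-irradiated LN T cells, 8.58 and 7.48 after IR, and 10.01 to 10.85 on the 4 tumor arrays, so the tissues did not overlap.

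**Figure D5:**
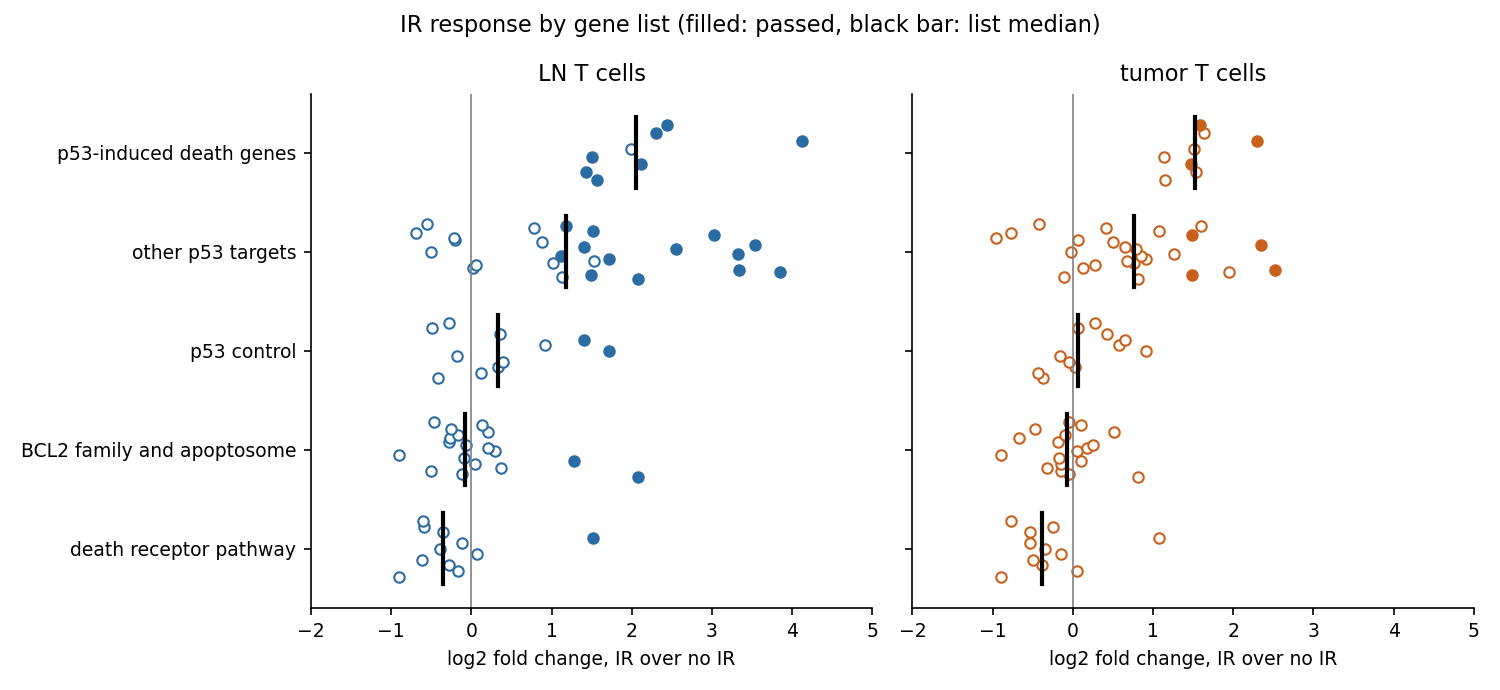
Log2 fold change of IR over no IR (horizontal axis) of each measured gene of 5 lists (vertical axis), in LN T cells (left) and tumor T cells (right). Filled points passed and black bars are list medians, 2.05 and 1.52 for the death genes, 1.18 and 0.76 for the other p53 targets and −0.35 and −0.39 for the death receptor pathway.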

How the data were processed

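CD8+ T cells of 8 pools were read on 8 arrays. The authors normalised the scans with RMA, which corrects background, equalises the arrays and summarises each probe set, and deposited log2 values of 45101 probe sets. Values were used as deposited. The version of RMA and the genome build are not given in the sources used here. RMA assumes similar overall distributions, so levels are relative to each array.

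Of the probe sets 35877 carry a gene symbol (34945 carry 1) and were tested. A gene was represented by its brightest probe set naming only that gene (18193 genes). A least-squares model of the 4 groups was fitted in limma 3.58.1 (R 4.3.3; 4 residual and 3.13 prior degrees of freedom), with 5 contrasts and Benjamini-Hochberg adjustment over all 35877. Thresholds and tool are those of the study's methods, which fit robustly and intersect with SAM. SAM was not run. In data simulated without any effect, 10.0% of probe sets had an unadjusted p under 0.05 by the robust fit and 5.18% by least squares, so the robust fit is an alternative. The scripts were tested on simulated data.

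The members and lists were chosen with earlier results of these data known. The lists hold 137 genes, and 125 were measured. Genes named are the members, the called pathway genes with the largest rise or fall, a few fixed pathway genes and the 5 nearest profiles. Groups come from the sample titles. The alternatives were a robust fit, replicate number as a block, only the arrays compared, array weights, no fold limit, the most variable probe set, a filter on dim probe sets, scaling to T cell identity genes, cyclic loess and each array left out.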

Additional observations from a re-analysis of the deposited data

How the results depend on the processing

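The higher values of the members with IR kept their direction in all alternatives in both tissues, and which members passed moved with the fit. In LN T cells 7 members and 191 genes passed. The members were 5 to 8 and the genes 67 to 1789 with each array left out, 0 and 0 from only the 4 arrays compared, and the genes 504 by a robust fit, 69 with array weights and 386 scaled to T cell identity genes. In tumor T cells 3 members and 18 genes passed. With each array left out they were 0 to 8 and 0 to 90, by a robust fit 8 and 177, from only the arrays compared 8 and 173, with array weights 8 and 200 and with T cell scaling 7 and 60, and cyclic loess gave 5 members. For tumor over LN without IR, 4 members and 1008 genes passed, 1 to 4 and 540 to 1181 with each array left out, and 1514 genes with no fold limit and 632 without the dimmer probe sets. With IR, 3 members and 1237 genes passed, 1 to 3 and 568 to 2412 with each array left out, and 5 and 2352 with no fold limit. For the difference of the IR effects, 0 members passed, and 1 by a robust fit (*Phlda3*), for which the share of all genes was not computed. With each array left out this difference was −2.03 to −1.63 for *Phlda3*.

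Of the values that changed sign, *Aen* without IR (0.07) was −0.52 on its most variable probe set and −0.0492 without tumor no IR replicate 2 (0.1908 without replicate 1), *Zmat3* without IR (−0.25) was 0.0098 with T cell scaling, and for the difference of the IR effects *Bbc3* (0.10) was −0.32 to 0.51 with each array left out (lowest without LN no IR replicate 2) and *Perp* (−0.48) was −1.24 to 0.29 (highest without LN IR replicate 1). T cell scaling moved the median of all genes by 0.34 (IR in LN), by 0.30 (IR in tumor), by 0.26 and 0.22 for tumor over LN without and with IR, and the share of rises among LN calls from 74.9% to 95.3% and of higher genes among those of tumor over LN with IR from 70.6% to 86.7%. The causes were not tested.

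The replicate number does not name the experiment in the labels. Deviations of same-numbered arrays correlated at 0.43 between the IR groups within LN and within tumor, and at −0.14 to 0.07 across tissues. Same-numbered arrays thus shared deviations within a tissue, and the main fit did not take them as pairs. The block fitted was shared by both tissues, so a pairing within each tissue was not tested. With replicate number as a block, 8 members passed with IR in LN (*Perp* in addition, adjusted p = 0.084), 3 in tumor, 4 and 3 for tumor over LN without and with IR, and 0 for the difference of the IR effects. The genes passing were 159, 15, 1100 and 1334.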
